A study of Mus musculus with 12 samples.

Results

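The genes of the hemidesmosome and of its ligand laminin-332 were followed across 12 arrays of mouse incisor epithelial colonies. The set comprised 9 genes: Col17a1, Itga6, Itgb4, Dst, Plec, Lama3, Lamb3, Cd151 and Col7a1. Members were taken by gene name, from every non-control probe whose transcript accession belonged to one of these symbols. Probes were matched for 8 of the 9 genes, 14 probes in all, out of 31064 genes and 39338 probes tested, and all 14 passed the filter on dim probes. Of the 31064, 16986 had a gene symbol. The others were accessions without a symbol, each counted as a gene, and shares of all genes below include them. Lama3, the alpha chain of laminin-332, had no matched probe and was not analysed here.

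Hemidesmosomes rivet the basal side of an epithelial cell to the basement membrane. The integrin alpha 6 beta 4 and type XVII collagen span the membrane, plectin and the epithelial form of dystonin tie them to keratin filaments inside, and outside they bind laminin-332, which anchoring fibrils of type VII collagen fasten to the connective tissue. In the continuously growing mouse incisor, epithelial stem cells lie in the labial cervical loop, where the basal cells rest on such a basement membrane. Mutations in many of these genes cause blistering skin disease, often with enamel defects.

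The colonies were grown in vitro in 2 dimensions from labial cervical loops of mice of mixed genetic background. Of these colonies, 4 lacked both Bmi1 and Ink4a/Arf (labelled Bmi1-;Ink4a/Arf-, here double null), 4 lacked Bmi1 (labelled Bmi1-, here Bmi1 null) and 4 were wild type (labelled WT). Bmi1 encodes a subunit of the Polycomb repressive complex 1, and Ink4a/Arf (Cdkn2a), which it represses, encodes the growth inhibitors p16Ink4a and p19Arf. Each replicate was 1 colony, amplified as a whole transcriptome, labelled with Cy3 and hybridised to a 1-colour Agilent whole mouse genome array. Neither the number of mice behind the colonies nor their age was given, so p-values measure the spread between colonies. In RNA from a whole colony, fewer cells of a type and less RNA per cell cannot be told apart.

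A level below is the log2 processed signal of a gene minus the 75th percentile of its array, so that 0 marks the 75th percentile, and a change is a difference between mean levels. The genotype labels were checked first: the change of Bmi1 against wild type was -2.25 in double null colonies (limma adjusted p = 1.95e-06) and -2.09 with Bmi1 alone deleted (limma adjusted p = 4.16e-06), or -0.86 and -0.85 relative to the median change of all genes. These Bmi1 values are from its brighter probe. The dimmer Bmi1 probe also fell in double null (single-probe limma adjusted p = 7.12e-07) and in Bmi1 null colonies (single-probe limma adjusted p = 5.73e-07). Its signal was well above background in every wild-type colony but in only 1 colony per mutant genotype, so its size is left out. For Cdkn2a, double null colonies stood at least 2.51-fold lower than Bmi1 null colonies, which stood at least 1.76-fold higher than wild type. Its probe was not well above background in double null and wild-type colonies. The wild-type arrays stood apart from the others as a group. The interquartile range of log2 signals was 4.04 to 4.93 in double null and 4.32 to 4.69 in Bmi1 null arrays, against 2.49 to 2.62 in wild-type arrays. The share of probes well above background was 74.8% to 87.6% in double null and 77.2% to 84.4% in Bmi1 null arrays, against 90.7% to 96.9% in wild-type arrays. The median change of all genes was -1.39 in double null and -1.24 in Bmi1 null colonies against wild type, and -0.06 between the mutants, so the members' changes against wild type are also given relative to that median. The part of this difference between arrays in the results against wild type was not tested, and it cannot be told apart from genotype. Summed linear signals of 8 epithelial markers, relative to the 75th percentile, were 502 to 935 in double null, 517 to 703 in Bmi1 null and 157 to 456 in wild-type colonies. Sums of 7 immune markers were 0.541 to 1.32 in double null, 0.603 to 0.976 in Bmi1 null and 6.89 to 8.50 in wild-type colonies. Sums of 10 mesenchymal markers were 5.04 to 39.9 in double null, 4.67 to 9.51 in Bmi1 null and 10.97 to 13.4 in wild-type colonies. Those of 5 endothelial markers were 0.334 to 0.854 in double null, 0.309 to 0.470 in Bmi1 null and 1.62 to 2.02 in wild-type colonies. Those of 4 nerve sheath and pigment cell markers were 2.20 to 3.74 in double null, 2.58 to 3.52 in Bmi1 null and 9.65 to 11.6 in wild-type colonies. No marker was below background on all arrays of a genotype, and the part of these cells in the results was not tested.

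Against wild type, most of the genes stood higher in both mutants. In double null colonies 8 of 8 genes rose, by a median of 1.51 (2.90 relative to all genes), and in Bmi1 null colonies 7 of 8 rose, by a median of 1.83 (3.07 relative to all genes). No member fell. The relative medians were smaller with quantile normalization (1.52 in double null and 1.84 in Bmi1 null), with the authors' deposited values (1.38 in double null and 1.71 in Bmi1 null) and with normexp background correction (1.21 in double null and 1.44 in Bmi1 null). Of all genes tested, 25.7% were called higher and 59.7% lower in double null colonies, and 25.2% higher and 58.3% lower in Bmi1 null colonies (limma, Benjamini-Hochberg adjusted p under 0.05). The members are bright genes, each with a mean level above 0 over the 12 arrays, and among the 7805 such genes 66.9% were called higher in double null and 65.2% in Bmi1 null colonies. That comparison was added after the values had been seen, and against it the counts of 8 and 7 of 8 lie nearer to their background. With arrays scaled to their medians, 8 of 8 members were called higher in both mutants, beside 39% of all genes in double null and 39.3% in Bmi1 null colonies. With quantile normalization, 5 of 8 rose in double null colonies (34.1% of all genes) and 6 of 8 in Bmi1 null colonies (33.9%). With the value table that the authors deposited, 6 of 8 rose in each (33.8% of all genes in double null and 33.5% in Bmi1 null). Single probes gave 14 of 14 higher in double null colonies, beside 29.4% of all probes, and 13 of 14 in Bmi1 null colonies, beside 28.8%. Within the 1 slide that held double null and wild-type arrays, the changes of the 8 members ran between 0.82 and 2.40. Within the 2 slides that held Bmi1 null and wild-type arrays they ran between 0.35 and 3.74 and between 0.13 and 2.58. Both comparisons share the same 4 wild-type arrays.

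**Figure D1:**
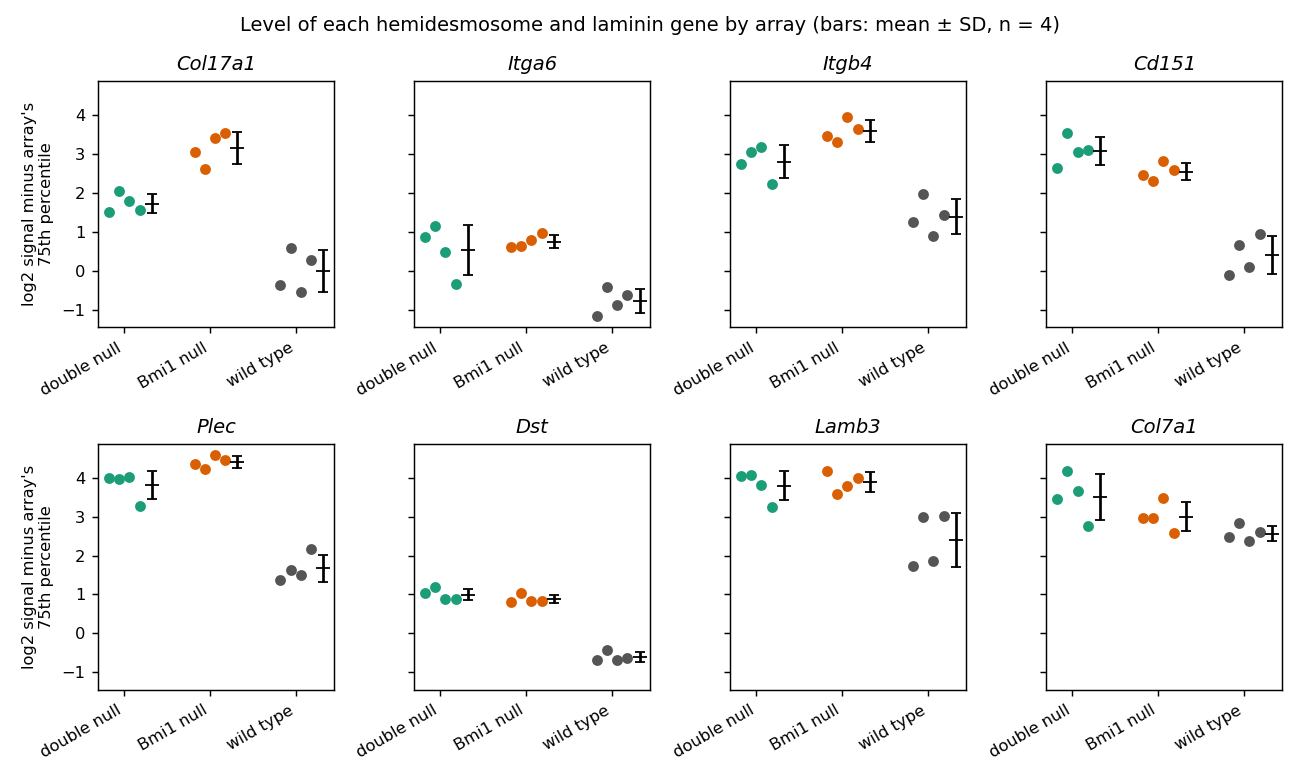
Level of each of the 8 genes on every array, as log2 signal relative to the 75th percentile of its array, with double null, Bmi1 null and wild-type colonies from left to right. Points are arrays and bars show the mean ± SD (n = 4). All wild-type points lie below both mutants for every gene except Col7a1. How many of all genes did so was not counted, so nothing is read from this separation. Against wild type, ranges in Bmi1 null colonies were also apart, up or down, in 8 of 8 other laminin chains. They were apart in 15 of 18 other basement membrane genes and 5 of 8 epithelial markers. In double null colonies these counts were 7 of 8, 13 of 18 and 5 of 8.

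The integrin chains are the core of the hemidesmosome. Itgb4, the beta 4 chain, whose long cytoplasmic tail binds plectin, had levels of 2.73, 3.06, 3.18 and 2.23 in double null colonies, 3.45, 3.30, 3.95 and 3.64 in Bmi1 null colonies, and 1.25, 1.96, 0.90 and 1.44 in wild-type colonies. On this probe, the brighter of 2, the 3 genotypes did not overlap: Bmi1 null colonies were highest and wild-type colonies lowest. Itgb4 rose by 1.41 ± 0.27 (SE) in double null colonies (limma adjusted p = 0.000346) and by 2.20 ± 0.27 with Bmi1 alone deleted (limma adjusted p = 1.02e-05), or by 2.81 in double null and 3.44 in Bmi1 null relative to all genes. With quantile normalization the rise in double null colonies was 0.64 and no longer called (limma adjusted p = 0.0624). Its other probe gave smaller changes against wild type, 0.71 in double null and 1.44 in Bmi1 null colonies, both called. On it double null colonies, at 2.20 to 2.85, overlapped both Bmi1 null colonies, at 2.76 to 3.88, and wild-type colonies, at 1.63 to 2.37.

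Itga6, the alpha 6 chain that pairs with beta 4 and that also marks basal cells of many epithelia, had levels of 0.86, 1.14, 0.49 and -0.34 in double null colonies, 0.60, 0.63, 0.78 and 0.98 in Bmi1 null colonies, and -1.17, -0.43, -0.88 and -0.62 in wild-type colonies. Every mutant colony exceeded every wild-type colony, but double null colony 4, at -0.34, lay close to the highest wild-type value. Itga6 rose by 1.31 ± 0.29 in double null (limma adjusted p = 0.00103) and by 1.52 ± 0.29 in Bmi1 null colonies (limma adjusted p = 0.00036), changes of 2.71 in double null and 2.76 in Bmi1 null relative to all genes. Cd151, the tetraspanin that binds laminin-binding integrins at the cell surface, had levels of 2.63, 3.53, 3.05 and 3.10 in double null colonies, 2.46, 2.30, 2.82 and 2.58 in Bmi1 null colonies, and -0.11, 0.66, 0.10 and 0.96 in wild-type colonies. It rose by 2.68 ± 0.27 in double null (limma adjusted p = 1.45e-06) and by 2.14 ± 0.27 in Bmi1 null colonies (limma adjusted p = 1.03e-05). Relative to all genes these were changes of 4.07 in double null and 3.38 in Bmi1 null, and no wild-type colony overlapped a mutant one.

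The plakins link the complex to intermediate filaments. Plec, which encodes plectin, had levels of 3.99, 3.98, 4.01 and 3.27 in double null colonies, 4.35, 4.22, 4.58 and 4.45 in Bmi1 null colonies, and 1.38, 1.63, 1.49 and 2.16 in wild-type colonies. On this probe, the brightest of 3, the genotypes did not overlap. Plec rose by 2.14 ± 0.23 in double null (limma adjusted p = 2.69e-06) and by 2.73 ± 0.23 in Bmi1 null colonies (limma adjusted p = 4.57e-07), changes of 3.54 in double null and 3.97 in Bmi1 null relative to all genes. Its 3 probes gave rises of 2.14 to 2.20 in double null and 2.28 to 2.73 in Bmi1 null colonies. Dst encodes dystonin, whose epithelial isoform is the bullous pemphigoid antigen 1 of the hemidesmosome and whose other isoforms act in nerve and muscle. Its brightest probe gave levels of 1.03, 1.19, 0.89 and 0.88 in double null colonies, 0.81, 1.04, 0.84 and 0.83 in Bmi1 null colonies, and -0.69, -0.42, -0.68 and -0.62 in wild-type colonies. The mutants overlapped each other and lay above all wild-type colonies, with a spread within each genotype of 0.11 to 0.15 (SD). Dst rose by 1.60 ± 0.16 in double null (limma adjusted p = 1.72e-06) and by 1.48 ± 0.16 in Bmi1 null colonies (limma adjusted p = 3.64e-06), changes of 2.99 in double null and 2.72 in Bmi1 null relative to all genes. Its 3 probes gave rises of 1.05 to 1.75 in double null and 1.09 to 1.52 in Bmi1 null colonies. The probes do not settle which isoform of Dst or Plec they report.

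Col17a1 encodes type XVII collagen, also called bullous pemphigoid antigen 2, the transmembrane collagen of the hemidesmosome and a gene known for its part in maintaining epidermal stem cells. Its levels were 1.51, 2.06, 1.79 and 1.55 in double null colonies, 3.05, 2.62, 3.41 and 3.53 in Bmi1 null colonies, and -0.36, 0.59, -0.55 and 0.28 in wild-type colonies. On the brighter of 2 probes the genotypes formed 3 separate ranges, with double null colonies in the middle. Col17a1 rose by 1.74 ± 0.29 in double null (limma adjusted p = 9.74e-05) and by 3.16 ± 0.29 in Bmi1 null colonies (limma adjusted p = 8.07e-07), or by 3.13 in double null and 4.40 in Bmi1 null relative to all genes. Its other probe gave rises of 1.92 in double null and 2.44 in Bmi1 null colonies.

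Col7a1 encodes type VII collagen, the constituent of the anchoring fibrils beneath the hemidesmosome. Its levels were 3.45, 4.17, 3.64 and 2.75 in double null colonies, 2.97, 2.96, 3.47 and 2.57 in Bmi1 null colonies, and 2.48, 2.83, 2.36 and 2.59 in wild-type colonies. Both mutants overlapped wild type. The change was 0.94 ± 0.29 in double null colonies, which was called (limma adjusted p = 0.00835), and 0.43 ± 0.29 in Bmi1 null colonies, which was not (limma adjusted p = 0.18). Relative to all genes these were 2.33 in double null and 1.67 in Bmi1 null. Neither held across the treatments of the signal. In double null colonies the change was -0.11 with quantile normalization (limma adjusted p = 0.746), 0.08 with the authors' deposited values (limma adjusted p = 0.803), 0.10 with normexp background correction (limma adjusted p = 0.749) and 0.48 with the slide as a block (limma adjusted p = 0.276). In Bmi1 null colonies it was 1.55 with arrays scaled to their medians (limma adjusted p = 0.000208) and -0.56 with quantile normalization (limma adjusted p = 0.0924).

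Lamb3, the beta 3 chain found in laminin-332, had levels of 4.05, 4.07, 3.81 and 3.26 in double null colonies, 4.16, 3.58, 3.77 and 4.00 in Bmi1 null colonies, and 1.74, 2.99, 1.87 and 3.01 in wild-type colonies. The wild-type colonies lay in a lower and an upper pair, and all were below the mutants. The lower pair, colonies 1 and 4, shared slide 1, and the upper pair, colonies 3 and 5, lay on slides 2 and 3. The change in Bmi1 null colonies was 2.28 within slide 1 and 0.60 within slide 2. With the slide as a block it was 1.70 (limma adjusted p = 0.00251), and the change in double null colonies was 1.48 (limma adjusted p = 0.0217). Lamb3 rose by 1.40 ± 0.32 in double null (limma adjusted p = 0.00124) and by 1.48 ± 0.32 in Bmi1 null colonies (limma adjusted p = 0.000854), changes of 2.79 in double null and 2.72 in Bmi1 null relative to all genes. Neither call held with quantile normalization (0.39 in double null, limma adjusted p = 0.316, and 0.50 in Bmi1 null, limma adjusted p = 0.201) or with the authors' deposited values (0.40 in double null, limma adjusted p = 0.358, and 0.48 in Bmi1 null, limma adjusted p = 0.264), nor with normexp background correction (0.42 in double null, limma adjusted p = 0.307, and 0.48 in Bmi1 null, limma adjusted p = 0.244).

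**Figure D2:**
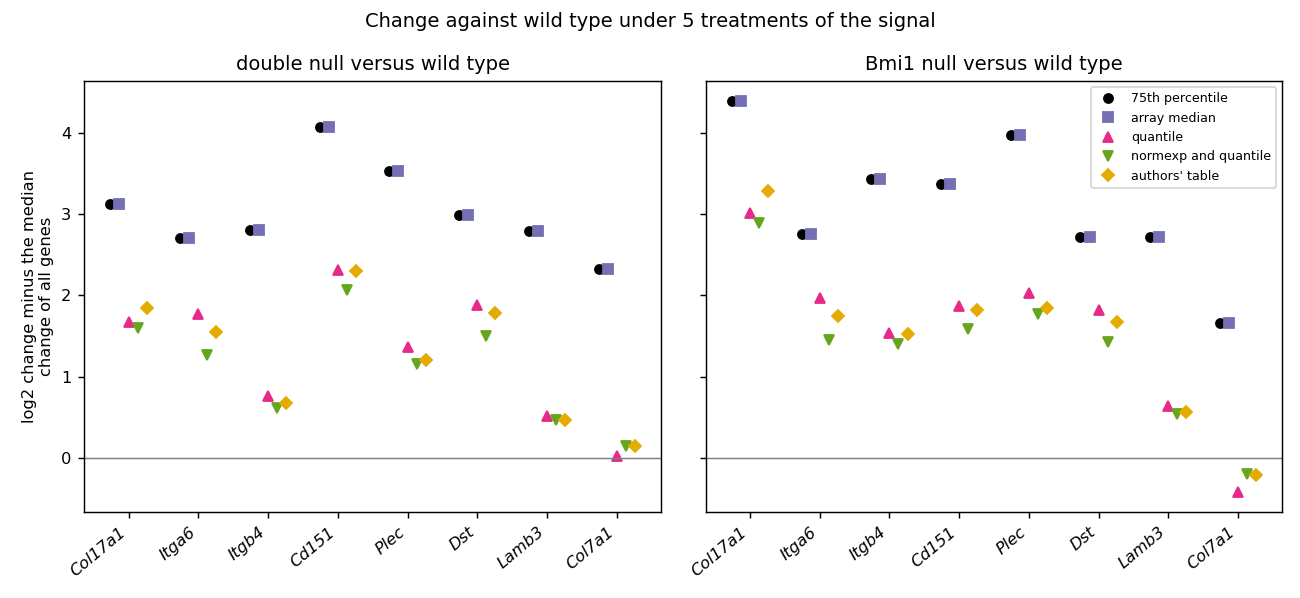
Change against wild type of each gene, in log2 units relative to the median change of all genes, for double null (left) and Bmi1 null colonies (right), under 5 treatments of the signal. With quantile normalization, normexp and the authors' deposited table, Lamb3 was between 0.46 and 0.64, Col7a1 between -0.42 and 0.15, and Itgb4 in double null colonies between 0.61 and 0.76.

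Between the mutants 1 of the 8 genes was called. Col17a1 fell by 1.43 ± 0.29 in double null relative to Bmi1 null colonies (limma adjusted p = 0.011). Relative to all genes the change was -1.37. Of all genes, 2.81% were called higher and 4.62% lower, of genes with a mean level above 0, 4.02% lower, and with arrays scaled to their medians 3.55% lower. With 1 member called, nothing is read from the count itself. The call rested on the brighter of the 2 Col17a1 probes, which was the only one of the 14 probes called, beside 4.78% of all probes called lower. The other Col17a1 probe had levels of 1.72, 2.22, 1.77 and 1.54 in double null colonies and 2.53, 1.83, 2.17 and 2.80 in Bmi1 null colonies. On that probe the genotypes overlapped, and the change was -0.52 ± 0.26 and not called (limma adjusted p = 0.265). With the slide as a block the change on the brighter probe was -1.65 and not called (limma adjusted p = 0.0927). Within the 2 slides that held both mutants it was -0.82, with 1 array each, and -1.88, with 2 double null arrays and 1 Bmi1 null array.

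On their brightest probes Itgb4 and Plec also had ranges in double null colonies wholly below those in Bmi1 null colonies, with changes of -0.78 ± 0.27 (limma adjusted p = 0.11) and -0.59 ± 0.23 (limma adjusted p = 0.154), neither called. On the other Itgb4 probe (-0.73) and on both other Plec probes (-0.13 and -0.25) the mutants overlapped. How many of all genes had separate ranges between the mutants was not counted, so nothing is read from these separations. The remaining changes were 0.54 for Cd151 (limma adjusted p = 0.266), 0.51 for Col7a1 (limma adjusted p = 0.339), -0.21 for Itga6 (limma adjusted p = 0.747), 0.12 for Dst (limma adjusted p = 0.737) and -0.08 for Lamb3 (limma adjusted p = 0.917), and in these 5 genes the mutants overlapped. The median change of the 8 members was -0.15, against -0.06 for all genes. Standard errors of 0.16 to 0.32 on these changes limit what 4 arrays a genotype could show, and a missed threshold does not show that the mutants were alike.

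**Figure D3:**
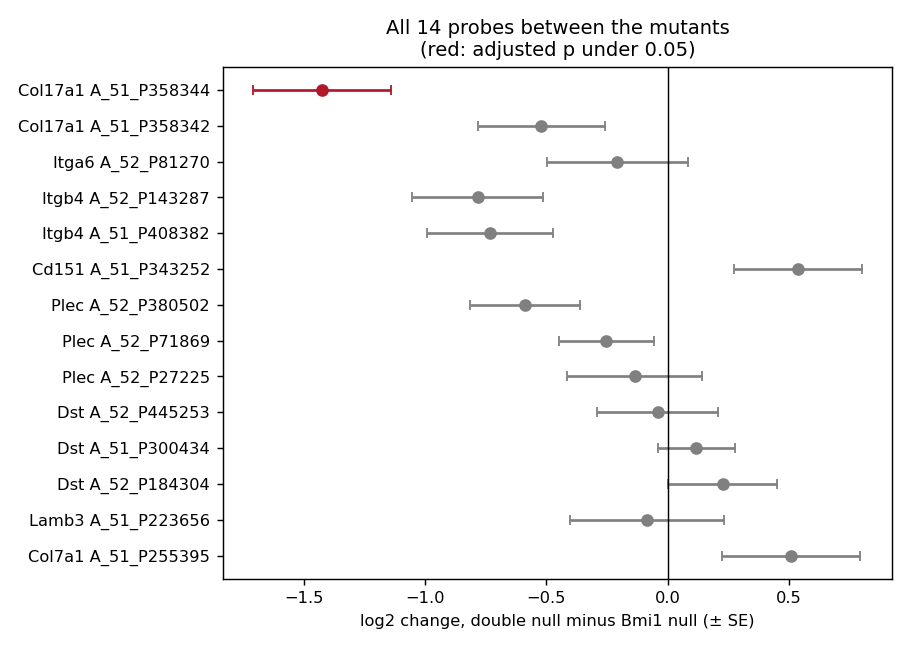
Change of each of the 14 probes in double null relative to Bmi1 null colonies, as the log2 difference ± SE, grouped by gene. The only probe with an adjusted p under 0.05 is 1 of the 2 Col17a1 probes, at -1.43, and the other lies at -0.52.

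The balance between partner genes was compared within arrays, since a difference of 2 levels on the same array does not move with the array's scale factor. An exact two-sided permutation test of 4 against 4 arrays cannot go below p = 0.0286. The clearest shift was in Col17a1 minus Col7a1, which was -1.95, -2.11, -1.85 and -1.20 in double null colonies, 0.07, -0.34, -0.06 and 0.96 in Bmi1 null colonies, and -2.83, -2.24, -2.91 and -2.31 in wild-type colonies. With the brighter Col17a1 probe used here, all 3 genotypes were separate. The difference changed by 0.80 in double null and by 2.73 in Bmi1 null colonies against wild type, and by -1.93 in double null against Bmi1 null colonies, each at the smallest exact p of 0.0286. Its direction was the same with quantile normalization, with the authors' deposited values and with the mean of all probes. With that mean the change between the mutants was -1.48. On the dimmer Col17a1 probe the levels of the mutants overlapped, and the pair was not tested with that probe alone. Plec minus Dst was 2.82 ± 0.31 in double null, 3.52 ± 0.25 in Bmi1 null and 2.27 ± 0.35 in wild-type colonies (SD, n = 4 each). Itga6 minus Itgb4 was -2.26 ± 0.43 in double null, -2.84 ± 0.24 in Bmi1 null and -2.16 ± 0.30 in wild-type colonies. Plec minus Dst reached the smallest exact p in Bmi1 null colonies against wild type (1.25) and in double null against Bmi1 null colonies (-0.71). Itga6 minus Itgb4 reached it in Bmi1 null colonies against wild type (-0.68). With the mean of all probes, Plec minus Dst changed by 1.12 in Bmi1 null colonies against wild type (exact permutation p = 0.0286). Between the mutants it changed by -0.43 (exact permutation p = 0.0571), with overlap. Itga6 minus Itgb4 then changed by -0.30 in Bmi1 null colonies against wild type (exact permutation p = 0.229), with overlap.

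These pairs against wild type depended on the treatment of the signal. Plec minus Dst in double null against wild-type colonies changed by 0.54 here, by -0.52 with quantile normalization and by -0.58 with the authors' deposited values. Itga6 minus Itgb4 in Bmi1 null against wild-type colonies changed by -0.68 here, by 0.42 with quantile normalization and by 0.22 with the authors' deposited values. Adjusted by Benjamini-Hochberg over the 12 tests run, 0 passed, and 6 had an exact permutation p of 0.0286 with an adjusted p of 0.0571. Over the 9 tests of the 3 pairs given here, the same 6 had an adjusted exact p of 0.0429 and passed, so whether they count as called rests on the size of the family.

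**Figure D4:**
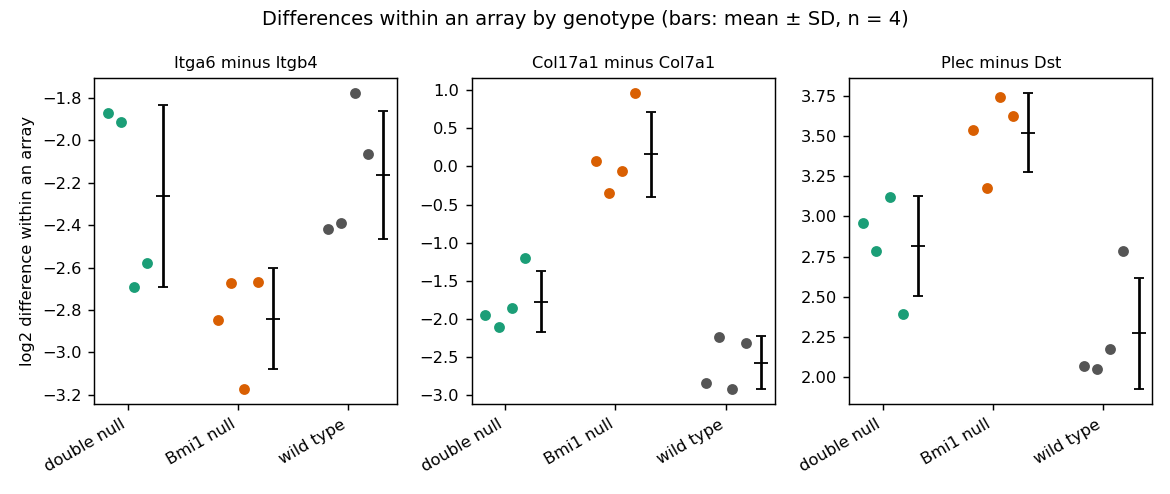
Difference between the log2 levels of partner genes within each array, for double null, Bmi1 null and wild-type colonies from left to right. Points are arrays and bars show the mean ± SD (n = 4). With the brighter Col17a1 probe, Col17a1 minus Col7a1 separates all 3 genotypes. Itga6 minus Itgb4 overlaps between double null and wild-type colonies.

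Stretches upstream of the transcription start, from RefSeq on GRCm38.p6, are shown for Col17a1 and Col7a1, the pair with the largest shift of balance among the 3 given, and for Lamb3, the measured chain of laminin-332. The promoter table had entries for 5 of the 8 measured genes (Col17a1, Col7a1, Lamb3, Dst and Cd151), and the others are named only. Each line gives the 250 bases before the start, 5′ to 3′ on the gene's strand, and for Lamb3 the upstream of its 2 listed starts. Capitals mark matches to TATAAA, to CCAAT and to GGGCGG (the GC box), searched on both strands together with the AP-1 motif TGANTCA, and no printed matches overlap. The windows are chr19:47692043-47692292 on the minus strand for Col17a1, chr9:108953336-108953585 on the plus strand for Col7a1 and chr1:193301744-193301993 on the plus strand for Lamb3.
Col17a1: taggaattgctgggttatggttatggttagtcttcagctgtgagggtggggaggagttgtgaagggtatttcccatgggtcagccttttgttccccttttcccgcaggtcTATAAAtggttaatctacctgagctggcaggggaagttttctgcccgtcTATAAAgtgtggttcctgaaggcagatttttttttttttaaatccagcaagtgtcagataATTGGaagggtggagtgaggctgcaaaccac
Col7a1: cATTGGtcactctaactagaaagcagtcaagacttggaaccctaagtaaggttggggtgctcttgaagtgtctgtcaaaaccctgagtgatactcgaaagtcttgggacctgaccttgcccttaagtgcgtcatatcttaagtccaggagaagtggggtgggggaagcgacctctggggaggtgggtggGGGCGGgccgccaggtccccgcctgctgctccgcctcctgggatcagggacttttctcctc
Lamb3: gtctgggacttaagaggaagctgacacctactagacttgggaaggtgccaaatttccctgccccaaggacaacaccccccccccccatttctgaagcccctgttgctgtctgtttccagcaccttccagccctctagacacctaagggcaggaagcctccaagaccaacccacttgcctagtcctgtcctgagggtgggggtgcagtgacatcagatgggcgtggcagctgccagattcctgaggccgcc
The Col17a1 window held 2 matches to TATAAA and 1 to CCAAT on the opposite strand, with a GC content of 46.0% and 2 CpG sites. The Col7a1 window held 1 GC box and 1 CCAAT match on the opposite strand, with a GC content of 56.4% and 7 CpG sites. The Lamb3 window held none of the 4 motifs, with a GC content of 58.8% and 2 CpG sites. Of 32851 promoters of this length, 12.4% held TATAAA, 33.8% CCAAT, 32.7% the GC box and 6.75% the AP-1 motif, and the median was a GC content of 52.4% with 6 CpG sites. No AP-1 match lay in any window of the 5 genes. These matches describe letters only.

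Further genes of cell adhesion to matrix were followed as 6 lists. The counts of each list are read against the shares of all genes given above. Of 8 other laminin chains tested, 4 rose and 3 fell in double null colonies, and 4 rose and 4 fell in Bmi1 null colonies, against wild type. Among those that rose was Lama5 (2.26 in double null, 2.22 in Bmi1 null), the alpha 5 chain of most epithelial basement membranes. Lamb1 (1.38 in double null, 1.43 in Bmi1 null) and Lamb2 (1.21 in double null, 1.63 in Bmi1 null) also rose in both mutants. Of 18 other basement membrane genes, 7 rose and 7 fell in double null colonies, and 9 rose and 6 fell in Bmi1 null colonies. With arrays scaled to their medians 10 rose and 4 fell in double null and 11 rose and 4 fell in Bmi1 null colonies, while 38.1% of all genes were then called lower in double null and 37.6% in Bmi1 null colonies. Col4a2, a type IV collagen chain, rose by 1.76 in double null and 2.62 in Bmi1 null colonies. Sparc, a collagen-binding matrix protein, rose by 1.70 in double null and 2.53 in Bmi1 null colonies. Bmp1, a protease that processes laminin-332 and type VII collagen, rose by 2.51 in double null and 2.29 in Bmi1 null colonies. Dag1, which encodes dystroglycan, rose by 2.12 in double null and 2.06 in Bmi1 null colonies. Frem2, a member of the Fraser complex of embryonic basement membranes, fell in both mutants, where its probe was well above background on 1 of 4 arrays of each, so no size is given.

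Of 14 other integrins, 7 rose and 3 fell in double null colonies (9 and 2 with arrays scaled to their medians), and 7 rose and 5 fell in Bmi1 null colonies (9 and 3 so scaled). In double null colonies Itga7, a laminin-binding chain, rose by 3.05, Itgb1, the chain shared by many integrins, by 2.07 and Itgb5 by 1.96. In Bmi1 null colonies Itga3, a chain of another laminin-332 receptor, rose by 2.60, Itgav by 2.25 and Itgb1 by 1.89. Itga7 and Itgb5 also rose in Bmi1 null colonies (1.19 and 1.79), and Itga3 and Itgav in double null colonies (1.69 and 1.66). Of 13 focal adhesion genes, 9 rose and 2 fell in double null colonies (12 and 0 with arrays scaled to their medians), and 8 rose and 2 fell in Bmi1 null colonies (11 and 1 so scaled). Parva, which links integrins to actin, rose by 2.53 in double null and 2.61 in Bmi1 null colonies, and Vcl, which encodes vinculin, by 2.40 in double null and 1.98 in Bmi1 null colonies. Lims1 rose by 2.10 in double null colonies and Kank1 by 2.11 in Bmi1 null colonies. With arrays scaled to their medians, Lims1 and Kank1 were each called higher in both mutants.

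Of 11 other tetraspanins, 7 rose and 2 fell in double null colonies (8 and 1 with arrays scaled to their medians), and 8 rose and 3 fell in Bmi1 null colonies. Tspan14 rose by 2.38 in double null and 2.14 in Bmi1 null colonies, and Cd63, a tetraspanin of late endosomes, by 1.87 in double null and 1.79 in Bmi1 null colonies. They were followed by Tspan6 in double null (1.46) and Cd9 in Bmi1 null colonies (1.47). With arrays scaled to their medians, Tspan6 and Cd9 were each called higher in both mutants. Of 7 other plakins and keratin partners, 6 rose and 0 fell in each mutant. Eppk1, encoding epiplakin, rose by 2.20 in double null and 2.47 in Bmi1 null colonies, and Evpl, encoding envoplakin, by 1.96 in double null and 2.33 in Bmi1 null colonies. Krt17, a keratin of skin appendages and stressed epithelium, rose by 2.69 in double null colonies, and Ppl, encoding periplakin, by 1.88 in Bmi1 null colonies. Krt17 and Ppl were each called higher in both mutants with arrays scaled to their medians. All of these named genes were called in the limma fit.

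Between the mutants few of these genes were called. Of the other laminins 1 of 8 rose, Lama1, by 1.01 (limma adjusted p = 0.0262), in double null relative to Bmi1 null colonies. Against wild type Lama1 was called lower in both mutants, with changes of -2.17 in double null and -3.19 in Bmi1 null colonies. Its mean levels were -3.46 in double null, -4.48 in Bmi1 null and -1.29 in wild-type colonies. Of the basement membrane genes 3 of 18 fell, with changes of -2.25 for Nid1, -1.11 for Col4a5 and -1.06 for Col18a1, and 1 fell with arrays scaled to their medians. Of the integrins 3 of 14 rose and 1 fell: Itgb3, the chain of vitronectin receptors, was higher by 2.73 (limma adjusted p = 0.00132) and Itga7 by 1.86, and Itga8 fell by 1.47. Itga5, named after its values were seen, rose by 0.75 (limma adjusted p = 0.0408). Of the focal adhesion genes 3 of 13 rose, Tln2 by 1.37, Fermt2 by 1.18 and Fermt1, encoding kindlin-1 of basal epithelium, by 1.04. No tetraspanin of 11 and no plakin or keratin partner of 7 was called at an adjusted p under 0.05 in limma.

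The genes nearest in pattern were found by the root mean square difference of centred levels over the 12 arrays among 16130 genes with a symbol. For Col17a1 these were Qsox1 (0.306), Cpne8 (0.308) and Cat (0.313). Of the members, Itgb4 (0.455) and Plec (0.462) were nearest to it, and ranked 54 and 58. For Lamb3 they were Lamb1 (0.185), Anxa3 (0.202) and Tnpo1 (0.245), and the nearest member was Itga6 (0.294), which ranked 37.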

How the data were processed

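RNA of 12 single colonies was measured on 1-colour arrays. The deposited scanner files hold spot intensity from Agilent Feature Extraction 10.7.3.1, per the file headers, with background-corrected gProcessedSignal and flags as other columns, and the value table that the authors deposited holds log2 values whose steps are not given in the sources used here. Its columns have nearly equal medians (7.21 to 7.24) and correlate with log2 spot medians of the same arrays at r = 0.992 or more. Flagged outlier spots were left out, spots of a probe averaged and log2 gProcessedSignal centred on each array's 75th percentile. The array of double null colony 1 had 1336 flagged outlier spots, against 55 to 132 on the other arrays. Of 41174 probes, 24844 had 1 RefSeq symbol and 16330 none. Probes well above background on 3 of 4 arrays of a genotype were kept, with the brightest probe of each gene. Differences were tested with limma 3.58.1 in R 4.3.3 over all 12 arrays in 1 model, with Benjamini-Hochberg adjustment over all genes (adjusted p under 0.05). Within-array differences were tested with exact permutation in scipy 1.17.1. In simulated data for Bmi1 null against wild type, 200 of 30014 genes were changed. Changes of 2 log2 units were recovered in 78% and of 1 unit in 20% of cases. In the measured data 25.2% of genes were called higher and 58.3% lower, far more than were changed in the simulation. The Benjamini-Hochberg cutoff depends on that share, so these percentages do not give the power of the measured comparison. Precision is limited by the number of arrays.

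The alternatives were median scaling, quantile normalization, normexp, the deposited values, other filters, the mean of probes, slide and replicate blocks, the mutant arrays alone and leaving out each array. Normexp was run on spot medians, as the files hold no spot means. The members and lists were chosen with earlier results of these data known. Named from the partner lists were, per comparison, up to 3 called genes with the largest relative change, and the 3 genes nearest in pattern to Col17a1 and Lamb3. Probes with no symbol were tested but not named. The 12 pair tests include 3 of a pair added after the data were seen, which, like 1 gene of the partner lists, is not reported here.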

Additional observations from a re-analysis of the deposited data

Results flagged for a closer look

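Of 54 sets of 4 values tested, 4 held a colony far from the other 3, where chance alone gives about 1 in 20. On the brightest Dst probe, Bmi1 null colony 2 was at 1.04, with the others at 0.81 to 0.84. On the dimmer Itgb4 probe, wild-type colony 3 was at 2.37, with the others at 1.63 to 1.70. On the brightest Plec probe, double null colony 4 was at 3.27, with the others at 3.98 to 4.01. For Plec minus Dst within an array, wild-type colony 5 was at 2.79, with the others at 2.05 to 2.17.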

How the results depend on the processing

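Leaving out each of the 12 arrays in turn changed none of the members' counts, which remained 8 higher in double null and 7 in Bmi1 null colonies against wild type and 1 lower between the mutants. With quantile normalization 5 members were called in double null colonies against wild type, and the change of Col7a1 turned to -0.11. Between the mutants 0 members were called with the slide as a block, with median scaling and the slide as a block, and with median scaling and the replicate block, where Col17a1 changed by -1.65, -1.49 and -1.30 (limma adjusted p = 0.0927, 0.139 and 0.0578). The last 2 settings were chosen after seeing the data, as were quantile-normalized pairs. The cause was not tested. Same-numbered arrays of different genotypes correlated at r = -0.15 to 0.22 after removing group means. In 7 of 20 cases an array correlated best with its own number. The numbers were not used as pairs in the main fit. These correlations cannot exclude a batch shared by same-numbered colonies. The fit with the replicate block gave 8, 7 and 1 calls. Of the 12 pair tests 0 passed, against 7 with the authors' deposited values, 7 with quantile normalization and 6 over the 9 tests of the pairs first listed. Lama3 minus Lamb3 was not run because no probe matched Lama3, and pairs were not rerun without single arrays, since a two-sided exact test of 3 against 4 arrays cannot reach p under 0.05. All 8 genes were well above background on all 12 arrays.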
